A study of Homo sapiens with 10 samples.

Results

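Full AP-1 sites without a STAT3 or NFKB1 partner are genomic sites at which FOS, JUN and JUNB all had a ChIP-seq peak in transformed breast epithelial cells while neither STAT3 nor NFKB1 had one nearby. A FOS peak of transformed cells on chromosomes 1 to 22 or X was taken as a full AP-1 site when a JUN and a JUNB summit of transformed cells both lay within 300 bp of its summit, and as a site without partner when no STAT3 or NFKB1 summit lay within 300 bp in either cell state. Of the 164605 FOS peaks in transformed cells, 76225 (46.3%) were full AP-1 sites, and 18121 of these had no partner. The remaining 58104 full AP-1 sites had a partner: 12844 had STAT3 without NFKB1, 7079 had NFKB1 without STAT3, and 38181 had both. The sites were chosen by the measured summit positions in the transformed FOS, JUN and JUNB lists and in all 4 STAT3 and NFKB1 lists, so values from those lists are given as descriptions.

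AP-1 is a family of dimeric transcription factors built from JUN and FOS proteins. JUN and JUNB can pair with themselves or with FOS, whereas FOS binds DNA only as the partner of a JUN protein. STAT3 is a signal-responsive factor activated by tyrosine phosphorylation downstream of cytokine receptors, and NFKB1 is the p105/p50 subunit of NF-κB. AP-1, STAT3 and NF-κB often share enhancers of inflammatory genes, and the sites described here are those at which these lists hold AP-1 alone.

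The cells were MCF10A-ER-Src, the non-tumorigenic human breast epithelial line MCF-10A with a transgene for the v-Src oncoprotein joined to the hormone-binding part of the estrogen receptor, which both states carried. Transformed cells (TAM) received 1 µM 4-hydroxy-tamoxifen for 12 h, and non-transformed cells (EtOH) did not. Library names in the headers carry 36 h for EtOH and 12 h for TAM, so time in culture and treatment cannot be told apart. The replicate letter in those names is the same in both states for FOS, JUN and NFKB1 but differs for JUNB and STAT3. For STAT3, the antibody in the labels carries the catalogue number that the study's antibody list gives for the form phosphorylated at tyrosine.

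Each protein had 1 library in each state, so no value has a replicate check, no test between states was possible, and every interval below covers the sampling of sites within a list. Between 4837474 and 22082403 reads per library remained after filtering. The FOS, JUN and JUNB lists of transformed cells came from 22082403, 18454386 and 15750765 reads and those of non-transformed cells from 18619521, 15852999 and 9178601 reads. The STAT3 libraries held 8967267 (TAM) and 10929003 (EtOH) reads and the NFKB1 libraries 9674390 (TAM) and 4837474 (EtOH) reads, so all 4 partner libraries were shallower than the 3 transformed AP-1 libraries. Pileup is the number of extended reads over a summit, and scaled pileup is the pileup per 1000000 filtered reads of its library. Fold enrichment relates the pileup to a local background that MACS estimated from the same library. Positions are on hg19, the build in the submitters' processing notes. The reference at hand is of another build, so no gene, motif or sequence was assigned to a site.

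Sites without partner made up 23.8% of full AP-1 sites (Wilson 95% interval 23.5 to 24.1%) and 11.0% of all FOS peaks in transformed cells. As a class they had the lowest median strength for all 3 proteins. Median FOS fold enrichment was 11.0 (order-statistic 95% interval 10.9 to 11.2) at sites without partner, 14.0 with STAT3 alone, 14.0 with NFKB1 alone and 21.7 with both. Over all FOS peaks of transformed cells the median was 8.28, below that of the sites without partner. Median JUN fold enrichment was 6.59 without partner, 11.5 over all partnered sites and 8.48 over all FOS peaks with a JUN summit within 300 bp. For JUNB the corresponding medians were 7.59, 12.6 and 9.23, so against those backgrounds the sites without partner were low for JUN and JUNB. In reads, the median FOS pileup was 22 without partner and 37 with a partner, and the median FOS peak spanned 214 bp against 318 bp.

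**Figure D1:**
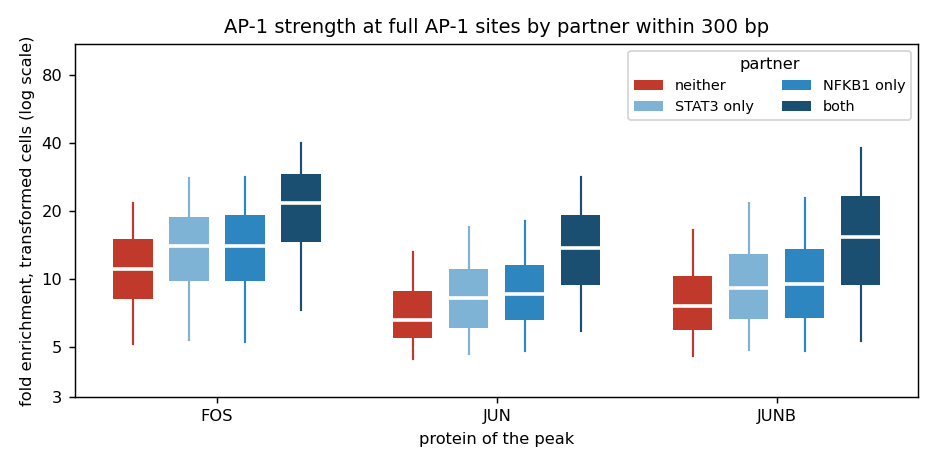
Fold enrichment of the FOS, JUN and JUNB peaks of transformed cells (log scale) at full AP-1 sites with neither partner, STAT3 only, NFKB1 only or both within 300 bp in either state. White lines are medians, boxes hold the middle 50% of sites and lines run from the 5th to the 95th percentile. The sites with neither partner have the lowest median for each protein, 11.0 for FOS, 6.59 for JUN and 7.59 for JUNB.

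The spread among the sites without partner was wide. FOS fold enrichment ran from 2.94 to 56.9, with the middle 50% of sites between 8.10 and 15.0. The strongest of them exceeded the median of the sites with both partners, so low strength described the group and not each site. When all full AP-1 sites were divided into 5 bands of 15245 sites by FOS fold enrichment, the share without partner was 44.3% (43.5 to 45.1%) in the weakest band, 37.1% in the second and 24.6% in the third. It was 10.6% in the fourth band and 2.33% (2.10 to 2.58%) in the strongest, which still held 355 sites without partner.

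**Figure D2:**
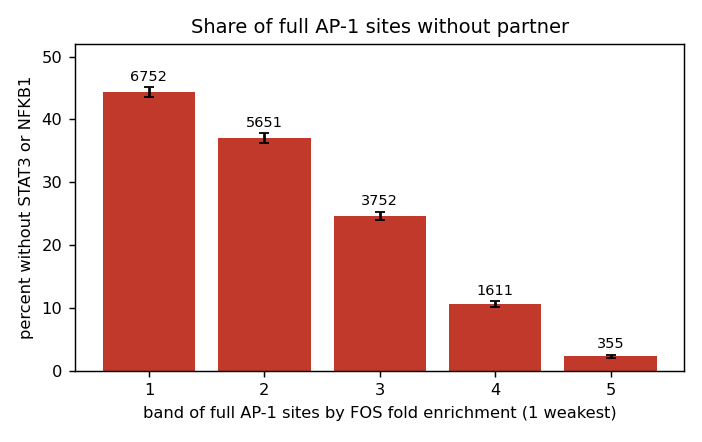
Percent of full AP-1 sites with neither STAT3 nor NFKB1 within 300 bp (y axis) in 5 equal bands of FOS fold enrichment (x axis, 1 weakest), with Wilson 95% intervals and the number of sites without partner above each bar. The share is 44.3% in band 1 and 2.33% in band 5.

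A weak site can hold a partner that a shallow list does not show. The smallest pileup in the STAT3 list of transformed cells was 4 reads, a scaled pileup of 0.446. At full AP-1 sites with STAT3 in that list, scaled STAT3 pileup was a median 0.967 times that of FOS. At 92.4% of the sites without partner, a STAT3 peak of that relative height would have stood above the smallest listed pileup. The same comparison gave 79.0% for NFKB1 in transformed cells, 75.3% for STAT3 in non-transformed cells and 63.3% for NFKB1 in non-transformed cells. For peaks as low as the 5th percentile of the ratio, which was 0.352 times FOS for STAT3 in transformed cells, the share was 27.8% for that list. It was 18.4% for NFKB1 in transformed cells, 7.47% for STAT3 in non-transformed cells and 2.17% for NFKB1 in non-transformed cells, so weak partner binding was not detectable at most of the sites. In the strongest band, a partner peak at the 5th percentile of that band's ratios would have exceeded the smallest listed pileup at all 355 sites without partner for both STAT3 lists and for NFKB1 in transformed cells, but at 133 of the 355 for NFKB1 in non-transformed cells. These values take the smallest pileup of a list as its floor, and the local threshold can be higher. The ratios come only from sites at which the partner was listed, so they leave out peaks too low to be listed. The shares can therefore be too high. In no band, the strongest included, can they show that a partner was absent.

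The 3 AP-1 summits lay close together at the sites without partner. The median distance was 18 bp between FOS and JUN, 18 bp between FOS and JUNB and 21 bp between JUN and JUNB, whereas the rule allowed 300 bp from FOS. Both JUN and JUNB lay within 50 bp of FOS at 80.3% of the sites. The median distance from FOS to JUN was 24 bp in the weakest band and 10 bp in the strongest. Partnered sites had 30 and 11 bp in those bands, so there FOS and JUN summits were at least as close without partner as with one. From JUN to JUNB the strongest band had 13 bp (11 to 14) without partner and 12 bp with a partner. Over all bands the partnered medians were shorter, with 16 bp from FOS to JUN, 16 bp from FOS to JUNB and 17 bp from JUN to JUNB. The sites were largely separate regions: 425 of them had another site without partner within 300 bp, and they drew on 17915 distinct JUN and 17905 distinct JUNB peaks.

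The non-transformed FOS, JUN and JUNB lists were not used to choose the sites, so they give a separate readout. Most sites without partner also had an AP-1 summit in the non-transformed lists, but JUN was often missing from the set. In non-transformed cells, 83.5% (82.9 to 84.0%) of them had a FOS summit within 300 bp, 56.2% (55.5 to 56.9%) had JUNB and 30.0% (29.4 to 30.7%) had JUN. Over all FOS peaks of transformed cells these shares were 60.7%, 37.6% and 36.1%, so the sites without partner stood above that background for FOS and JUNB and below it for JUN. That background also holds FOS peaks that lack a JUN or JUNB summit in transformed cells. Over all full AP-1 sites the shares were 89.4% for FOS, 66.7% for JUNB and 60.3% for JUN, each above that of the sites without partner. At partnered sites the shares were 91.2% for FOS, 70.0% for JUNB and 69.7% for JUN. The class most like them, STAT3 without NFKB1, had nearly the same FOS and JUNB shares as the sites without partner, 85.3% and 56.7%, but a JUN share of 45.3%. Sites without partner minus partnered sites, the JUN difference was -39.7 percentage points (Newcombe 95% interval -40.5 to -38.9).

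At least 1 AP-1 protein had a summit in non-transformed cells at 87.4% (86.9 to 87.8%) of the sites without partner and at 94.0% of the partnered sites. That difference, -6.65 points, was -2.21 points with −log10 q of at least 10 in every list and -2.26 points among the stronger full AP-1 sites. By band of FOS fold enrichment it ran from -5.17 points in the weakest to 0.244 in the second. Bands of JUN fold enrichment, chosen afterwards, gave 3.52 points in the weakest (79.4% without partner, 75.9% with a partner) and -0.631 in the fourth. In bands of JUNB fold enrichment it ran from -3.14 points in the weakest to -0.832 in the strongest. The commonest arrangement without partner was FOS with JUNB but without JUN, at 5573 sites (30.8%). That arrangement was found at 20.8% of sites with STAT3 alone, 19.0% with NFKB1 alone and 7.63% with both, together 11.9% of partnered sites, and at 11.3% of all FOS peaks of transformed cells. FOS alone followed with 4440 sites (24.5%), and all 3 proteins were present at 4145 (22.9%), against 56.7% of partnered sites and 24% of all FOS peaks. JUN alone was listed at 239 sites (1.32%) and JUN with JUNB at 88 (0.486%), near the 1.40% and 0.534% of partnered sites. No AP-1 summit was found at 2292 sites (12.6%), against 11.3% of sites with STAT3 alone, 8.65% with NFKB1 alone, 3.72% with both and 33.3% of all FOS peaks.

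Since weak sites are missed more often, the shares were compared within the strength bands. JUN was then less frequent without partner in every band, whereas FOS and JUNB were higher or lower depending on the band and the partnered class. In the weakest band, 21.9% (20.9 to 22.9%) of sites without partner and 53.4% (52.3 to 54.4%) of partnered sites had a JUN summit in non-transformed cells. In the third band the JUN shares were 36.5% and 61.0%, and in the strongest band they were 68.5% (63.4 to 73.1%) and 92.1% (91.7 to 92.6%). The JUN difference was thus at least 23.7 points in every band.

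For FOS the difference between sites without partner and all partnered sites was at most 2.87 points in any band. Against the separate classes it was wider in the weakest band, with 73.3% without partner, 69.4% with NFKB1 alone and 80.9% with both. JUNB was found more often without partner in the 3 weaker bands, with 57.4% against 48.5% in the second band, and less often in the 2 stronger bands, with 91.3% against 95.5% in the strongest. Of its 15 comparisons of 5 bands with the 3 partnered classes, JUNB was higher without partner with intervals apart in 8 and lower with intervals apart in 1. For FOS, 3 were higher and 3 lower with intervals apart. JUN was lower without partner in all 15, each with intervals that did not overlap. The class nearest to the sites without partner was STAT3 without NFKB1, with JUN at 38.1% in the weakest band and 77.5% in the strongest. The sites with both partners stood farthest away, with 68.9% and 93.4%. All 15 comparisons rest on the same sites and the same JUN library.

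**Figure D3:**
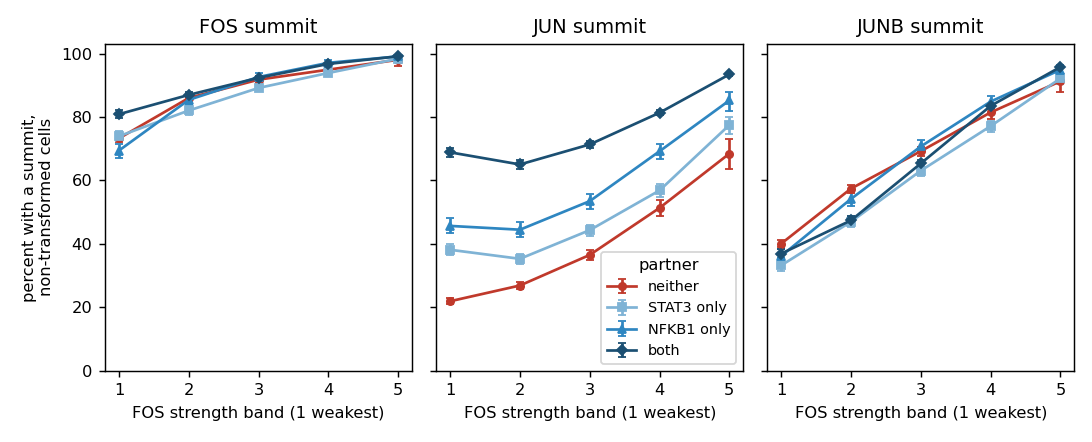
Percent of full AP-1 sites with a FOS, JUN or JUNB summit within 300 bp in non-transformed cells (y axis) by band of FOS fold enrichment in transformed cells (x axis, 1 weakest), for sites with neither partner, STAT3 only, NFKB1 only or both, with Wilson 95% intervals. The JUN panel separates the 4 classes, from 21.9% with neither partner to 68.9% with both in band 1, while in the FOS and JUNB panels the lines of the classes cross, with FOS from 69.4% to 80.9% in band 1 and JUNB from 47.0% to 57.4% in band 2.

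Bands made from JUN fold enrichment itself, a choice made after seeing these shares, gave smaller differences in the same direction. The JUN share was then 17.5% without partner and 31.3% with a partner in the weakest band, and 78.5% and 96.4% in the strongest. All 15 comparisons with the partnered classes were again lower without partner, with intervals apart. In these bands the FOS share was up to 5.50 points higher without partner than with one. With bands of JUNB fold enrichment, also chosen afterwards, all 15 were lower and 14 had intervals apart. The difference was not limited to some chromosomes: JUN was less frequent without partner on each of the 23 chromosomes, by 34.4 to 42.5 points.

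The height of JUN relative to FOS in transformed cells is given as a description, since that list chose the sites. Over all bands its median ratio was 0.673 without partner and 0.693 with a partner, and the median JUN to JUNB ratio was 0.768 in both. In the weakest FOS band the median scaled JUN pileup was 0.915 times that of FOS without partner and 1.10 times with a partner. In the strongest band the ratios were 0.542 and 0.669. The JUNB to FOS ratio in the weakest band was 1.09 without partner and 1.08 with a partner, and in the strongest band it was 0.912 and 1.00. Within FOS strength bands, JUN relative to FOS was therefore lower at the sites without partner. JUNB relative to FOS was near that of partnered sites in the weakest band and lower from the third band, at 0.755 against 0.787, to the strongest. Strength was not fully matched within a band. Median FOS fold enrichment in the strongest was 28.5 without partner and 31.9 with a partner.

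Absence from the non-transformed JUN list does not set JUN at 0. The 12682 sites without partner that lacked a JUN summit in non-transformed cells had a median scaled JUN pileup of 0.596 in transformed cells, 1.89 times the smallest pileup of the non-transformed JUN list. At 5719 of them (45.1%) the transformed pileup was at least 2 times that smallest value. The other sites would have needed a smaller decrease than that to drop out of the list.

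Where a protein had a summit in both states, the height of the peaks was compared. At the median site without partner, scaled pileup in the transformed library was higher for JUN, lower for JUNB and slightly lower for FOS. Fold enrichment was not compared between states over all sites, and at single sites the measures could differ. At chr6:17715228-17715667, described below, the transformed to non-transformed JUNB ratio of scaled pileup was 0.803. JUNB fold enrichment there was 38.0 in non-transformed and 42.2 in transformed cells. At chr2:61986807-61987123 both measures fell, with a ratio of 0.574 and fold enrichments of 47.2 and 37.7. The median ratio of scaled pileup, transformed to non-transformed, was 1.26 (1.24 to 1.29) for JUN over 5439 sites, 0.816 (0.801 to 0.821) for JUNB over 10183 sites and 0.925 (0.913 to 0.934) for FOS over 15125 sites. Over all FOS peaks of transformed cells with a summit in both states, the medians were 1.36, 0.971 and 0.937. The FOS ratio of the sites without partner was above 1 among the stronger sites, with 1.05 over the sites at or above the median FOS fold enrichment of full AP-1 sites. That split uses the transformed FOS value, which is also the numerator of the ratio.

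A JUN pileup at least 2 times higher in transformed cells was seen at 12.3% of the sites without partner with JUN in both states, against 16.8% of all FOS peaks and 20.4% of partnered sites. Such a call needed a transformed pileup of at least 2 times 0.315, the smallest listed scaled JUN pileup of non-transformed cells. The median transformed JUN pileup was 0.650 over all sites without partner and 1.14 over all partnered sites. For FOS the share was 8.51% against 8.43% of all FOS peaks, which is the background level. For JUNB it was 2.73% against 7.89%. The smallest listed scaled JUNB pileup was 0.436 in non-transformed and 0.317 in transformed cells. A higher JUNB call thus needed a transformed pileup of at least 2 times 0.436. That is above 0.825, the median transformed JUNB pileup of all sites without partner. A lower JUNB call faced only the floor of 0.317. How far these floors set the JUN and JUNB shares was not tested. In the other direction, JUNB was at most 0.5 times its non-transformed pileup at 14.5% of the sites without partner, against 7.03% of all FOS peaks. That share was 7.93% with STAT3 alone, 9.03% with NFKB1 alone and 2.81% with both, together 4.41% of partnered sites. FOS was that much lower at 9.65% of the sites without partner, against 6.72% of all FOS peaks, and JUN at 0.644%, against 0.617%.

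JUNB was thus the protein with the largest share of sites of lower pileup in transformed cells among the sites without partner. In number, such sites were about as many for JUNB, 1472, as for FOS, 1459. Its ratio was below that of partnered sites in each FOS strength band, with 0.728 against 0.816 in the weakest band. In the strongest band the medians were 1.02 (0.954 to 1.13) and 1.11 (1.10 to 1.12), and the intervals overlapped. For JUN the ratio was 1.07 against 1.09 in the weakest band and 1.80 (1.67 to 1.89) against 1.62 (1.61 to 1.63) in the strongest, so the order of the classes turned between bands. The JUNB libraries of the 2 states carry different replicate letters and 9178601 against 15750765 reads, and the part of these in the JUNB ratio was not tested. Summits kept their place between states: the median shift was 14 bp for FOS, 26 bp for JUN and 20 bp for JUNB.

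The 8 sites without partner with the smallest sum of significance ranks over the FOS, JUN and JUNB lists of transformed cells, leaving out chromosome 8 and neighbours within 1 kb, are described one by one. The first of them, chr11:80716384-80717330, had a scaled FOS pileup of 6.44 in non-transformed and 4.94 in transformed cells. JUN there was 2.33 in non-transformed and 3.96 in transformed cells, and JUNB was 5.77 and 5.97. FOS was the lower and JUN the higher in transformed cells at this site, which had the largest FOS fold enrichment in transformed cells of all sites without partner, 56.9.

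That site also lay close to the edge of the rule, with a STAT3 summit of transformed cells 330 bp away and its FOS summit inside a partner peak. The second, chr5:77995222-77996114, was of the same kind, with a STAT3 summit of non-transformed cells at 419 bp. Its scaled FOS pileup was 5.59 in non-transformed and 4.03 in transformed cells, JUN was 1.14 and 2.71, and JUNB was 4.47 and 4.32. In all, 51 sites without partner (0.281%) had a FOS summit inside a STAT3 or NFKB1 peak whose own summit lay more than 300 bp away.

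The third site, chr2:61986807-61987123, stood 2499 bp from the nearest partner summit. FOS there had a scaled pileup of 5.32 in non-transformed and 3.31 in transformed cells, JUN was 1.32 and 2.38, and JUNB was 7.19 and 4.13. It had the highest non-transformed JUNB pileup of the 8 sites. The next 3 were chr5:81084919-81085211, chr17:28019244-28019489 and chr6:17715228-17715667, with scaled FOS pileups of 4.46, 4.14 and 4.19 in non-transformed cells and 3.22, 3.44 and 3.94 in transformed cells. The transformed to non-transformed JUN ratios there were 1.30, 1.38 and 1.01.

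The seventh site, chr13:57311162-57311452, differed from the others. It had no JUN summit in non-transformed cells and a scaled JUN pileup of 2.38 in transformed cells. JUNB there was 0.654 in non-transformed and 3.05 in transformed cells, a ratio of 4.66, and FOS was 2.15 and 3.44. The eighth, chr1:45390505-45390809, had lower FOS and JUNB in transformed cells, with FOS at 3.87 and 2.90 and JUNB at 6.54 and 3.81. FOS was lower in transformed cells at 7 of the 8 sites, whereas the median FOS ratio of all 355 sites without partner in the strongest band was 1.04 (0.976 to 1.11), and the JUN ratio ran from 1.01 to 2.39 at the 7 sites at which it could be computed.

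**Figure D4:**
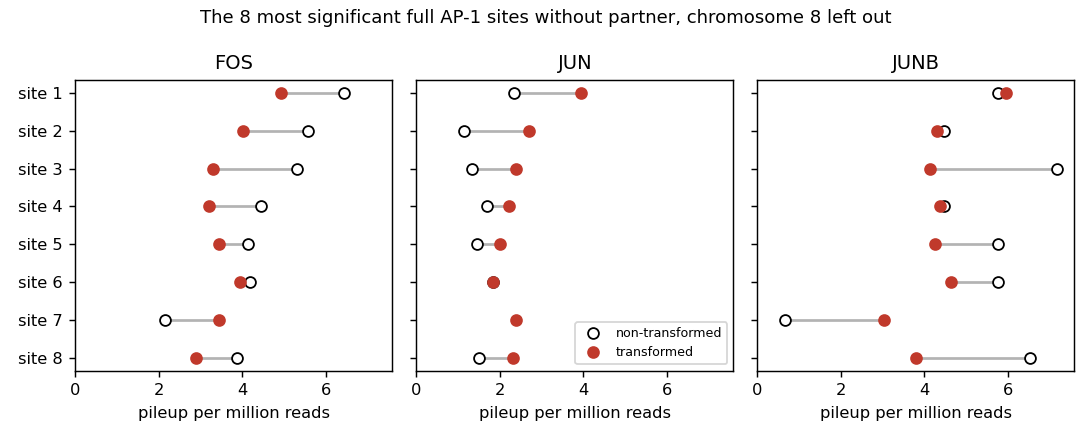
Pileup per 1000000 filtered reads (x axis) of FOS, JUN and JUNB in non-transformed (open) and transformed (filled) cells at the 8 most significant sites without partner outside chromosome 8, numbered from the most significant in the order of the text, 1 library per point. FOS is lower in transformed cells at all sites but site 7, and site 7 has no non-transformed JUN point because no summit was listed.

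Of the 2292 sites without partner and without any AP-1 summit in non-transformed cells, most were weak. Their median FOS fold enrichment in transformed cells was 8.80 (8.55 to 8.80), against 14.2 (14.0 to 14.5) at the 4145 sites with all 3 proteins in non-transformed cells, and 86.5% of them were in the 2 weakest bands. Of all sites without partner, 37.3% were in the weakest band and 31.2% in the next, and of those with FOS alone in non-transformed cells 78.4% were in these bands. The first of them by the rank sum outside chromosome 8 was chr5:64086074-64086396, with scaled pileups of 2.40 for FOS, 1.03 for JUN and 1.59 for JUNB in transformed cells. FOS there stood at 53 reads, far over the 5 reads that were the smallest pileup in the non-transformed FOS list. The next was chr6:121948942-121949221, with 1.95 for FOS, 1.25 for JUN and 1.59 for JUNB. The following 3, chr2:206392526-206392868, chr3:7259686-7259895 and chr12:91195608-91195944, had scaled FOS pileups between 1.58 and 2.08. None of the 5 reached the transformed FOS pileup of the 8 strongest sites, of which the lowest was 2.90.

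In distance, the sites without partner ranged from just past the rule's limit to far from any partner. The nearest STAT3 or NFKB1 summit in any of the 4 lists was a median 7925 bp away (7732 to 8138), within 500 bp at 705 sites and within 1000 bp at 1921 (10.6%). It was beyond 10 kb at 7896 sites (43.6%) and beyond 100 kb at 260. The nearest summit came from the transformed STAT3 list at 40.3% of sites and from the transformed NFKB1 list at 37.6%, and those are the 2 longest partner lists.

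**Figure D5:**
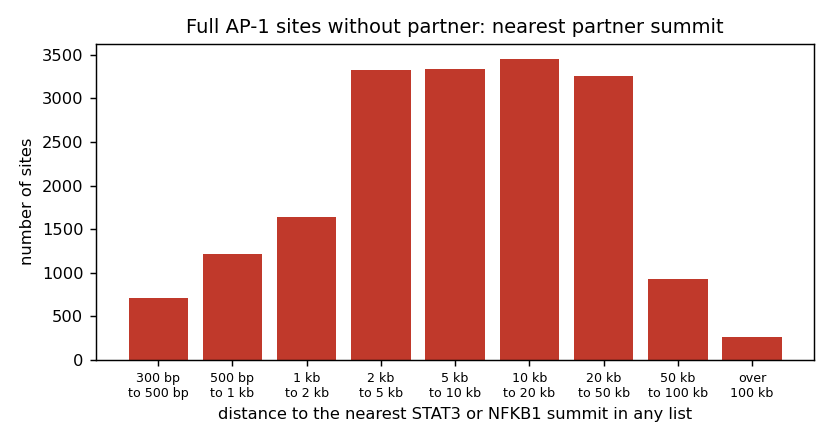
Number of full AP-1 sites without partner (y axis) by distance from the FOS summit to the nearest STAT3 or NFKB1 summit in either state (x axis, bins of unequal width). The bins from 2 to 50 kb hold most sites, 705 lie within 500 bp and 260 beyond 100 kb.

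Sites near a partner and far from one had like values in the other readouts. Median FOS fold enrichment was 10.9 for the 10225 sites with a partner summit within 10 kb and 11.2 for the 7896 without. A JUN summit in non-transformed cells was present at 31.3% of the near and 28.3% of the far sites, and JUNB at 54.6% and 58.3%. Both JUN shares were below that of any partnered class, of which the lowest was 45.3% for STAT3 without NFKB1. At the edge of the rule, a JUN summit was listed in non-transformed cells at 34.8% of the 221 sites whose nearest partner summit lay at 301 to 350 bp and at 47.1% of the 431 partnered sites at 251 to 300 bp, and a FOS summit at 72.4% and 79.6%. The median FOS fold enrichments there were 9.32 and 6.71, so the order of strength was the reverse of that over all sites.

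Among the sites more than 10 kb from any partner summit, the first 5 by the rank sum outside chromosome 8 included 3 of the 8 strongest sites, on chromosomes 17, 13 and 1. The other two were chr18:64678165-64678580 and chr12:101321599-101321944. The chromosome 18 site lay 100012 bp from the nearest partner summit and had a scaled FOS pileup of 3.81 in non-transformed and 3.31 in transformed cells, JUN at 1.32 and 2.28, and JUNB at 5.45 and 3.43. The chromosome 12 site had FOS at 2.36 and 2.49, JUN at 0.757 and 2.71, and JUNB at 1.63 and 4.25. Peaks of all 3 AP-1 proteins that ranked among the strongest of the group were thus listed at sites more than 10 kb from any listed STAT3 or NFKB1 summit.

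The sites without partner were also more isolated from other FOS peaks. Their nearest other FOS summit in transformed cells was a median 4499 bp away (4385 to 4643), against 2033 bp (2001 to 2068) for all partnered sites. By class it was 3016 bp (2881 to 3149) with NFKB1 alone, 2780 bp (2667 to 2892) with STAT3 alone and 1725 bp with both. The order held within each strength band, with 4805 bp (3961 to 5801) against 1633 bp (1576 to 1698) in the strongest. Among the sites without partner, 14876 (82.1%) had no other such site within 10 kb. No share for partnered sites or randomly placed sites is given beside it, so that value does not measure isolation. The longest chain of sites without partner, each at most 10 kb from the next, held 6 sites within chr5:159969406-159984219, with 0 partnered sites between them.

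By chromosome, the share of full AP-1 sites without partner ran from 18.9% (16.4 to 21.7%) on chromosome 22 to 31.7% (29.8 to 33.7%) on chromosome X. The 22 autosomes lay at or below 26.4%, the value of chromosome 3. Within strength bands, a split chosen after seeing the chromosome shares, X exceeded the autosomes in each band, with 58.2% (53.5 to 62.8%) against 43.9% (43.1 to 44.7%) in the weakest and 5.32% (3.50 to 7.99%) against 2.25% (2.02 to 2.50%) in the strongest. Copy number of the chromosomes in these cells was not analysed here.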

How the data were processed

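ChIP-seq peak lists for FOS, JUN, JUNB, STAT3 and NFKB1 in 2 states, 10 libraries, were used as deposited. The submitters' processing notes name Bowtie, MACS2 and hg19, and the file headers give MACS version 2.0.10.20131216, 36-bp reads, at most 1 read per position, no control library, a q-value cutoff of 0.05 and an effective genome of 2700000000 bp. Peaks were called per library. The deposited pileup is a signal, the reads over the summit before any scaling. Significance was deposited as −log10 of p and q, and the deposited fold enrichment is a ratio to local background.

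Samples were grouped by title. Peaks on chromosomes 1 to 22 and X were matched by summit distance, at most 300 bp. Pileup was divided by the filtered reads of its library and multiplied by 1000000. Shares have Wilson 95% intervals and medians order-statistic 95% intervals, and a change was called at a ratio of 2 or 0.5. With 1 library per group no test was run. The code was tested on simulated lists. Named sites are the first 8 by summed −log10 q ranks, the first 5 without AP-1 in non-transformed cells and the first 5 beyond 10 kb from a partner, with chromosome 8 and neighbours within 1 kb skipped. The sites, comparisons and named-site rule were chosen with earlier results of these data known. Alternatives were summit distances of 150 and 500 bp, other ways to judge absence, a stricter threshold, merged summits and all chromosomes. Python 3.11.15 was used with numpy 2.4.6, pandas 2.3.3, scipy 1.17.1 and matplotlib 3.10.9.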

Additional observations from a re-analysis of the deposited data

How the results depend on the processing

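The 7 planned results and the JUN difference, which was added after seeing the data, were recomputed under 9 alternatives. Of the 72 values, 39 stayed within the interval of the reported value or, for the number of sites, within 1.5 times of it. The differences from partnered sites kept their sign under each of the 9 alternatives, which did not include the strength bands. The share of full AP-1 sites without partner was 25.0% with summits matched at 150 bp, 22.2% at 500 bp, 25.4% with absence judged in the transformed lists only, 33.1% with STAT3 lists only, 36.6% with −log10 q of at least 10 in every list and 9.48% (3628 sites) among full AP-1 sites at or above the median FOS fold enrichment. With 500 bp, the share with AP-1 in non-transformed cells was 88.0%, the ratio of median FOS fold enrichment to partnered sites 0.632, the FOS pileup ratio 0.911 and the FOS to JUN distance 19 bp. With transformed lists only, the AP-1 share was 88.0%, its difference from partnered sites -5.87 points and the FOS pileup ratio 0.899. With STAT3 lists only, these were 88.5%, -5.89 points and 0.937, and the strength ratio was 0.617. With the stricter threshold they were 90.4%, -2.21 points and 0.843, with a strength ratio of 0.732 and a distance of 13 bp. Among the stronger sites they were 95.6%, -2.26 points and 1.05, so that the FOS pileup ratio turned from below to above 1, with a strength ratio of 0.785 and a distance of 13 bp. The JUN difference was -38.6 points at 150 bp, -37.7 with transformed lists only, -34.7 with STAT3 lists only, -32.1 with the stricter threshold and -33.1 among the stronger sites. The causes of these shifts were not tested.

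Limits: each protein has 1 library per state, so nothing here measures the spread between cultures. No paired analysis was possible because each group has 1 sample. The planned motif search and the distances to gene starts were not run, since the reference at hand is of another build than the lists. The NFKB1 list of non-transformed cells rests on 4837474 reads and the STAT3 list of transformed cells on 8967267, so a partner peak of low height at a weak AP-1 site was not detectable at this depth.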
